A study of Mus with 7 samples.

Results

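Among macrophages that had received no LPS, a small share of cells already carried a high load of inflammatory chemokine mRNA, and these chemokine-high cells are described here. They were taken from the vehicle library without LPS (Veh.LPS.0), where 2481 cells passed the limits of more than 20000 unique molecular identifiers (UMIs, a tag on every captured RNA molecule), at least 2000 genes and under 20% mitochondrial UMIs. Each cell was scored by the UMIs of Ccl3, Ccl4, Cxcl2 and Tnf as a share of all its UMIs. The 248 cells of the top 10% were called chemokine-high, the 1240 cells of the bottom 50% chemokine-low, and 993 cells fell in neither set. The whole series held 11640 such cells in 7 libraries. Because the cells were chosen by these 4 genes, their levels are given as a description, and differences in other genes within this library carry no test.

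The cells were self-renewing macrophages grown from fetal liver of C57BL/6J mice (FLMs) in medium with 30 ng/mL GM-CSF, a cytokine that keeps them dividing, and single-cell libraries were made by droplet capture with 3′ chemistry. Con cells were collected in 10% FBS before any other treatment. All other cultures spent 24 h in 0.25% FBS and 8.3 µM BSA, either alone (Veh) or loaded with DHA, an omega-3 fatty acid, at 25 µM. They were collected without LPS (Veh.LPS.0, DHA.LPS.0), 1 h after 20 ng/mL LPS (Veh.LPS.1, DHA.LPS.1) or 4 h after it (Veh.LPS.4, DHA.LPS.4). Every condition was 1 library of cultured cells, so the cells of a library share its culture and are not replicates, and 95% intervals on ratios and shares are exact binomial intervals that cover counting error only. Pairs of libraries shared 0 to 4 cell barcodes, and 6 of the 2481 Veh.LPS.0 barcodes, 2 of them chemokine-high, recurred in any other library.

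Ccl3 and Ccl4 encode chemokines that draw monocytes and lymphocytes, Cxcl2 encodes a chemokine that draws neutrophils through CXCR2, and Tnf encodes a cytokine that activates endothelium and other leukocytes. In macrophages all are induced within the first hours of Toll-like receptor signalling through NF-κB and MAP kinases, and they are also known for low, uneven expression in resting cultures. Their mRNAs carry AU-rich elements bound by decay factors of the tristetraprolin family, so that the mRNA is short-lived.

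In the mouse genome (GRCm38, RefSeq), Ccl3 (ENSMUSG00000000982) is annotated at chr11:83647843-83649378 and Ccl4 (ENSMUSG00000018930) at chr11:83648624-83664683. The annotated spans overlap, and how reads in the overlap were divided was not examined. Ccl9 at chr11:83572917-83578636 and Ccl6 at chr11:83587886-83593087 lie beside them. Ccl2 at chr11:82035577-82037452 and Ccl7 at chr11:82045712-82047525 form another pair on the same chromosome. Cxcl2 (ENSMUSG00000058427) is annotated at chr5:90903899-90905938 and Tnf (ENSMUSG00000024401) at chr17:35199367-35202007.

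In counts per 1000000 UMIs of the cell (CPM), the score ranged from 39.0 to 36073 over the Veh.LPS.0 cells, and the 90th percentile was 23.8 times the 10th. The lowest chemokine-high cell had 6643 CPM and the next cell below it 6594. The highest chemokine-low cell had 1575 and the next above it 1580. The median was 9663 CPM in chemokine-high and 602 in chemokine-low cells, and the distribution had no gap at either limit. When the UMIs of every cell were divided at random into 2 equal samples and scored separately, the 2 scores had a Spearman correlation of 0.97 over 2481 cells. Chemokine-high cells were somewhat deeper, with a median of 40671 UMIs and 5759 genes against 36367 UMIs and 5712 genes in chemokine-low cells. Their median mitochondrial share was 7.56% against 7.40%.

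**Figure D1:**
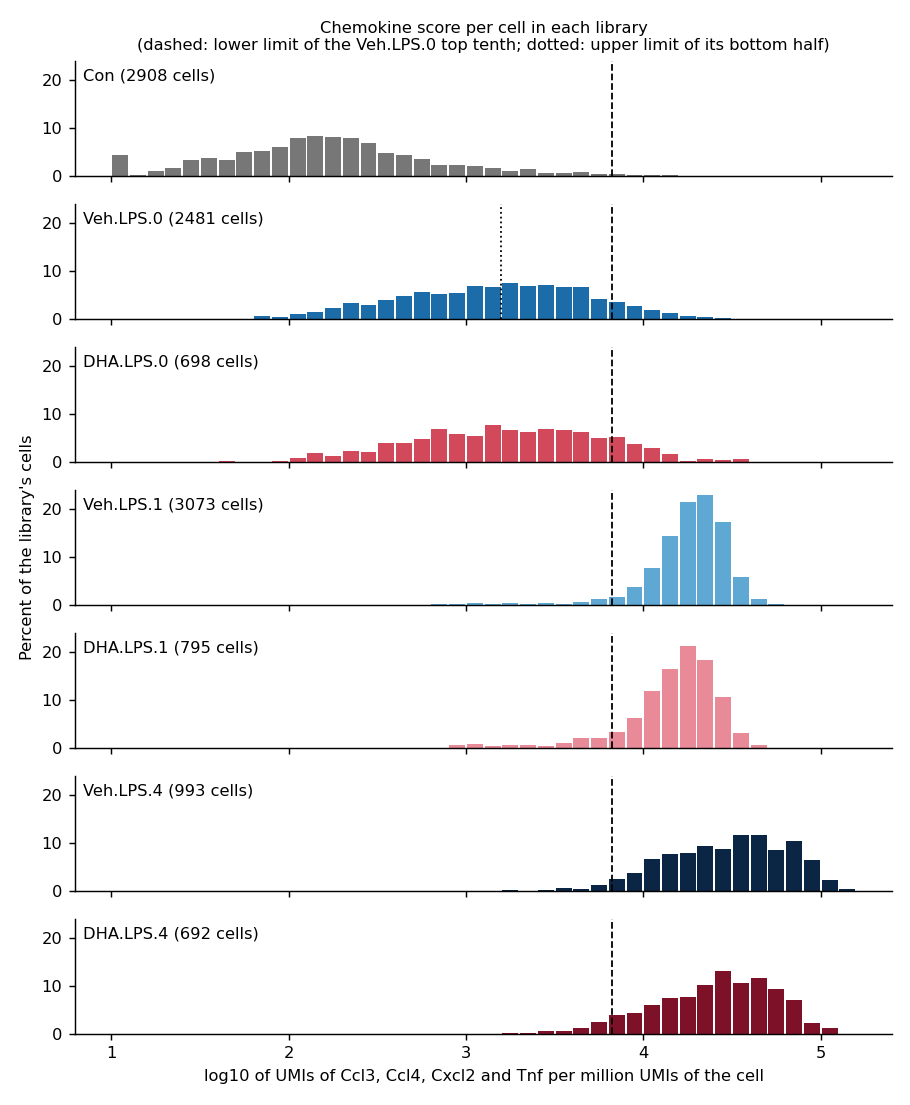
Distribution of the chemokine score (UMIs of Ccl3, Ccl4, Cxcl2 and Tnf as CPM of the cell, log10 axis) as percent of cells in each of the 7 libraries; the first bar pools cells at or under 10 CPM. The dashed line is the lower limit of the chemokine-high cells of Veh.LPS.0 (6643 CPM) and the dotted line the upper limit of its chemokine-low cells (1575); the share of cells right of the dashed line was 0.722% in Con, 10.0% in Veh.LPS.0, 13.8% in DHA.LPS.0 and over 90% in the LPS libraries, where the lowest share was 90.6%.

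Levels of genes below are CPM of the UMIs summed over a set of cells, with the 4 score genes left out of the total. Ccl4 stood at 5864 CPM in chemokine-high and 290 CPM in chemokine-low cells, and Ccl3 at 4551 and 294 CPM. Cxcl2 stood at 763 and 8.40 CPM and Tnf at 312 and 95.9 CPM. These gaps were fixed by the choice of cells. To see each gene in cells that it had not chosen itself, cells were ranked by the other 3 genes. The ratio between the top 10% and the bottom 50% was then 43.4 for Cxcl2 (40.2 to 47.0), 11.6 for Ccl4 (11.5 to 11.8), 11.1 for Ccl3 (10.9 to 11.3) and 2.98 for Tnf (2.85 to 3.11). With cells chosen on 1 of these random samples of their UMIs and read in the other, the ratios were 77.3, 19.7, 14.3 and 3.08 for the same genes in this order. In the first of these readings each of the 4 genes was higher in cells ranked without it, Tnf least. Those top sets were close to the original one. They shared 245 of its 248 cells for Tnf, 236 for Cxcl2, 216 for Ccl3 and 197 for Ccl4. In the second reading each gene was part of the score that chose the cells.

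Ccl4 and Ccl3 made up 51.7% and 39.3% of all score UMIs in the library, Tnf 5.16% and Cxcl2 3.81%. In chemokine-low cells Tnf held 13.9% of the score and Cxcl2 1.22%, and in chemokine-high cells these shares were 2.71% and 6.64%. Across cells thinned to 20000 UMIs, the Spearman correlation was 0.78 between Ccl3 and Ccl4, 0.31 between Ccl3 and Tnf, and 0.23 between Ccl3 and Cxcl2. These coefficients share the cells' depth and the same library and are given without a p.

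Cxcl2 was spread over the cells unlike the other score genes. At equal depth, 2018 of the 2481 cells held no Cxcl2 UMI, among them 139 of the 248 chemokine-high cells. The 54 cells with at least 20 Cxcl2 UMIs held 76.0% of all Cxcl2 UMIs, and 39 of them were chemokine-high. By contrast, a Ccl3 or Ccl4 UMI was found in 100% of chemokine-high cells and in 93.5% and 90.6% of chemokine-low cells. A Tnf UMI was found in 95.2% and 69.2%, and a Cxcl2 UMI in 44.0% and 10.97%. Without thinning the shares in chemokine-low cells were 97.5% for Ccl3, 96.9% for Ccl4, 82.2% for Tnf and 17.4% for Cxcl2, and Cxcl2 was found in 52.8% of chemokine-high cells. The libraries held no second cell type in which free RNA could be gauged, so these shares stand without such a background.

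The 39 Cxcl2-rich chemokine-high cells also differed from the other 209 in genes outside the score, a subset chosen after the values were seen. Csf3, which encodes the neutrophil growth factor G-CSF, stood at 75.2 CPM in them and 4.48 CPM in the others. Atf3, a stress-induced transcription factor, stood at 479 and 66.1 CPM, Plk2, a kinase of the immediate stress response, at 189 and 33.5 CPM, and Ptgs2, the inducible cyclooxygenase, at 90.3 and 16.2 CPM. Nfkbia, the inhibitor of NF-κB that NF-κB itself induces, stood at 219 and 228 CPM. Acod1, also read in these cells, was lower in the Cxcl2-rich ones, on few UMIs. Nfkbiz and Tnfaip3, also in the NF-κB system list, had higher values in the Cxcl2-rich cells, Tnfaip3 again on few UMIs. Nfkbiz stood at 22.3 and 8.64 CPM, and Tnfaip3, with 9 and 26 UMIs, at 4.67 and 2.84 CPM. The early-response gene Ier3 stood at 586 and 261 CPM. Of the other score genes, whose sum with Cxcl2 chose these cells, Ccl3 stood at 6149 and 4214 CPM, Tnf at 471 and 278 CPM and Ccl4 at 4750 and 6099 CPM.

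Outside the score, chemokine-high cells had more RNA for other monocyte-attracting chemokines, osteopontin and most early-response genes compared, and less for G2 and mitosis genes. A gene was compared when at least 25% of the cells of either set held a UMI of it and the sets together held at least 10 UMIs, and it was counted by size alone when its CPM differed by more than 1.5-fold. Of 8297 genes compared, 399 (4.81%) were higher and 605 (7.29%) lower in chemokine-high cells, so 39.7% of the counted genes were higher. With TMM factors in place of the UMI totals, 485 were higher and 464 lower, a share of 51.1% higher. The median log2 ratio of all compared genes was -0.12, and -0.04 with TMM, a shift of 0.08. Some genes in these counts, and in the lists below, reached the 25% share of cells only in the set where they were higher.

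The 12 highest ratios began with Ccl7, a ligand of CCR2 on monocytes, at 378 CPM in chemokine-high and 6.31 CPM in chemokine-low cells, a ratio of 59.9 (53.3 to 67.5). Ccl2, the main CCR2 ligand, was far more abundant, at 3630 and 250 CPM, a ratio of 14.5 (14.2 to 14.8). At equal depth the median cell held 52 Ccl2 UMIs in the chemokine-high set and 3 in the chemokine-low set. Plk2 stood at 60.6 and 2.18 CPM, Atf3 at 138 and 17.1 CPM, and Il1rn, the secreted antagonist of the interleukin-1 receptor, at 210 and 28.7 CPM.

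Signalling and surface genes made up the rest of the 12. Scimp, a membrane adaptor that scaffolds kinases at Toll-like receptors, stood at 39.8 CPM in chemokine-high and 1.95 CPM in chemokine-low cells. Rgs16 and Rgs1, which shorten signalling by G proteins and so by chemokine receptors, stood at 28.0 and 1.64 CPM and at 294 and 33.6 CPM. Slc40a1, ferroportin, the iron exporter, stood at 54.2 and 3.59 CPM, Procr, the receptor of protein C, at 55.9 and 5.23 CPM, and Clec4n, dectin-2, at 92.5 and 11.1 CPM. Lims2, an adhesion adaptor, was sparse, at 8.40 and 0.95 CPM. Ccl7, Plk2, Scimp, Rgs16, Slc40a1, Procr, Lims2 and Clec4n reached the 25% share of cells only in the chemokine-high set. Their place among the 12 therefore depends on the set in which they were high. At equal depth a UMI of Rgs1 was found in 89.9% of chemokine-high and 33.6% of chemokine-low cells, against 19.8% and 2.42% for Rgs16 (96.8% and 46.2%, and 30.2% and 4.76%, without thinning).

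Of the 12 lowest ratios, 2 were of genes in the G2 and mitosis list, Cenpf and Plk1. Cenpf, a kinetochore protein, was the most abundant, at 75.6 CPM in chemokine-high and 404 CPM in chemokine-low cells, a ratio of 0.187 (0.174 to 0.200). Prc1, which bundles spindle microtubules, stood at 57.0 and 231 CPM. Aspm, a spindle pole protein, stood at 20.0 and 107 CPM, and Plk1, the main mitotic kinase of its family, at 19.1 and 77.1 CPM. The rest of the 12 reached the 25% share of cells only in the chemokine-low set. Their place among the 12 therefore depends on the set in which they were high. The log2 ratio was -2.72 for the helicase Pif1, -2.50 for Sapcd2, which helps orient the spindle, -2.19 for the exchange factor Arhgef39, -2.18 for the kinesin Kif14, -2.18 for the centriole gene Hyls1, -2.17 for Prr11, -2.14 for the kinesin Kif2c and -2.06 for the repressor Mxd3.

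Several of these differences ran through the whole range of cells. The cells were cut into 10 equal parts by score. CPM was higher at each of the 9 steps for Ccl2, Ccl9, Spp1, Rgs1, Atf3 and Lims2. For these genes the largest step was into the highest part. Ccl2 went from 124 CPM in the lowest part to 411 in the fifth, 1566 in the ninth and 3630 in the highest. Spp1, which encodes osteopontin, went from 2785 to 4174, 9618 and 21003 CPM. Plk2 and Ccl7 lay mostly in the highest part, at 60.6 and 378 CPM, against 16.8 and 88.9 CPM in the ninth. The summed list of 20 G2 and mitosis genes was lower at each step, from 6162 to 1401 CPM. Its largest step was from the lowest part to the next, which had 4930 CPM.

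**Figure D2:**
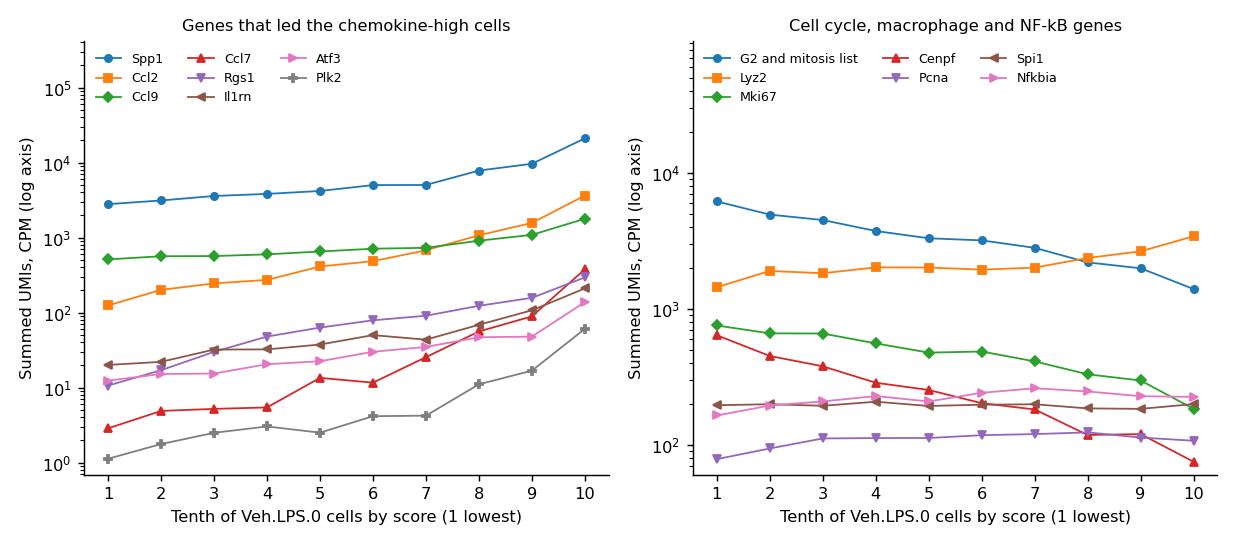
CPM (log axis) of summed UMIs in 10 equal parts of the Veh.LPS.0 cells ordered by chemokine score, for genes that were higher (left) and for cell cycle, macrophage and NF-κB genes (right). Ccl2 spans 124 to 3630 CPM and Spp1 2785 to 21003 CPM, the G2 and mitosis list goes from 6162 to 1401 CPM, and Spi1 stays near 200 CPM.

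Of the chemokines outside the score, 4 could be compared, and 3 of them, Ccl2, Ccl7 and Ccl9, were counted as higher. Of all genes compared, 4.81% were higher, and Ccl7 entered only through the chemokine-high set, as given above. Ccl9, a neighbour of Ccl3 that signals through CCR1, stood at 1780 and 577 CPM, and Cxcl16, a membrane-bound chemokine, at 10.5 and 10.6 CPM. Ccl6 held a UMI in too few cells to be compared, with 59.3 CPM in chemokine-high and 3.40 CPM in chemokine-low cells. Of the chemokine receptors, Ccr1 was higher, at 62.6 and 26.7 CPM, and Cx3cr1, the fractalkine receptor, lower, at 48.4 and 109 CPM.

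Of 4 cytokine genes compared, 3 were higher by the size limit, beside 4.81% of all genes. Spp1 was the most abundant of them, at 21003 CPM in chemokine-high and 3485 CPM in chemokine-low cells, a ratio of 6.03 (5.99 to 6.06). Osm, oncostatin M, stood at 22.5 and 5.08 CPM, and Il1rn is given above. Osm reached the share of cells needed for comparison only in the chemokine-high set. Its place among the 3 therefore depends on the set in which it was high. Tnfsf9, the ligand of 4-1BB, stood at 136 and 116 CPM and was within the limit. Il1a, Il1b, Il10 and Il12b had no UMI in either set, which allows up to 3 UMIs a set at this depth. Spp1 had the highest ratio of variance to mean over cells of 8301 genes, and Cxcl2, Ccl2, Ccl4, Ccl3 and Ccl7 ranked 3, 6, 7, 9 and 13.

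The genes that carry or restrain the NF-κB signal differed little. Of 15 genes of the NF-κB system, 1 was higher and 0 lower, with a median log2 ratio of -0.01. Of all genes compared, 4.81% were higher and 7.29% lower. Nfkbia stood at 226 and 201 CPM, Tnip3 at 93.9 and 109 CPM and Nfkb1 at 49.1 and 49.4 CPM, and the gene past the limit was Nfkbiz, an inducible co-activator, at 11.02 and 5.42 CPM. Nfkbiz reached the share of cells needed for comparison only in the chemokine-high set, where it was higher. Of 15 other NF-κB target genes, 4 were higher and 0 lower, with a median of 0.21. They were Plaur, the urokinase receptor, at 128 and 48.7 CPM, Tnfaip2 at 98.5 and 61.6 CPM, Malt1 at 85.1 and 56.5 CPM and Nlrp3, the inflammasome sensor, at 37.9 and 24.3 CPM. Sod2 and Tlr2 were within it, at 201 and 234 CPM and at 49.5 and 51.4 CPM.

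Of 14 genes of the LPS receptor and its adaptors, 1 was higher and 0 lower, beside 4.81% and 7.29% of all genes. That gene was Cd14, the co-receptor that hands LPS to TLR4, at 1120 and 663 CPM. Tlr4 stood at 20.9 and 20.3 CPM and Ly96, its partner MD-2, at 16.1 and 16.8 CPM. The median of the list was -0.03, against -0.12 for all genes compared.

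Immediate-early genes, which are transcribed within minutes of many stimuli, were higher as a group. Of 15 compared, 11 were higher and 1 lower, with a median log2 ratio of 0.80. Ier3 stood at 318 and 120 CPM, Klf6 at 199 and 105 CPM, Junb at 154 and 90.6 CPM, Jund at 152 and 87.6 CPM and Jun at 114 and 53.2 CPM. Fos, at 15.6 and 18.1 CPM, and Ier2, at 47.5 and 49.9 CPM, were within the limit, and Klf4 was the lower gene, at 49.9 and 75.3 CPM. With TMM factors 11 were higher and 0 lower. Of 5 genes that feed back on MAP kinases, 3 were higher, among them Phlda1 at 43.3 and 7.64 CPM and Dusp4, a phosphatase of ERK, at 34.5 and 13.3 CPM. Phlda1, like Fosl1 and Egr1 among the 11 immediate-early genes, reached the share of cells needed for comparison only in the chemokine-high set. Their place in these counts therefore depends on the set in which they were high. Of 7 genes of mRNA decay, 1 was higher, Zfp36, which encodes tristetraprolin, at 57.4 and 32.5 CPM. Of all genes compared, 4.81% were higher.

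Some genes of the lysosome, of iron handling and of the oxidative stress response were higher in chemokine-high cells. Of all genes compared, 33.7% had a log2 ratio above 0, 4.81% were higher and 7.29% lower. All 14 lysosome genes compared had a log2 ratio above 0, and 4 passed the limit, Ctsl at 1864 and 1037 CPM, Ctsb at 1258 and 724 CPM, Ctsd at 821 and 396 CPM and Gpnmb at 29.7 and 6.37 CPM. The first 3 encode cathepsin proteases. In a list of 6 genes that bind or move metals, 4 were higher and 0 lower, with a median of 0.88, namely Fth1, Ftl1, Mt2 and the exporter Slc40a1 given above, while Mt1 and the transferrin receptor Tfrc were within the limit. The ferritin chains Fth1 and Ftl1 stood at 17241 and 9876 CPM and at 14952 and 7303 CPM, where Ftl1 shares reads with near-identical copies and is uncertain, and Mt2 stood at 111 and 57.5 CPM. Of 11 NRF2 targets, 5 were higher, Prdx1 at 1419 and 810 CPM, Sqstm1 at 351 and 91.4 CPM, Hmox1, heme oxygenase, at 136 and 52.2 CPM, Slc7a11 at 53.0 and 20.9 CPM and Srxn1 at 31.9 and 13.98 CPM. The other 6 were within the limit, and Gclc, Gsr and Me1 had log2 ratios of -0.29, -0.20 and -0.07.

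The G2 and mitosis list was lower as a whole, and genes of sterol synthesis leaned lower. All 20 G2 and mitosis genes were lower by the limit, with a median log2 ratio of -1.75. Mki67 stood at 185 and 624 CPM, Top2a at 205 and 560 CPM and Ube2c at 114 and 432 CPM. Of 20 S phase genes, 2 were lower, Rrm1 at 76.4 and 126 CPM and Tyms at 44.7 and 75.4 CPM, beside 7.29% of all genes lower, while Pcna stood at 108 and 102 CPM. All 19 genes of sterol synthesis compared had a log2 ratio below 0, where only 33.7% of all genes compared lay above 0. Of the 19, 5 passed the limit, beside 7.29% of all genes lower. The most abundant were Hmgcs1 at 70.8 and 133 CPM, Pmvk at 72.9 and 120 CPM and Mvd at 77.3 and 117 CPM. With TMM factors 4 of the sterol genes passed. Of 7 interferon response genes, 2 were lower, with 1 under TMM. They were Irf9 at 12.5 and 19.8 CPM and Xaf1 at 6.41 and 9.88 CPM. In the interferon response list, Xaf1 reached the share of cells needed for comparison only in the chemokine-low set, where it was high. The other 13 of that list were too sparse to compare, and among these Oasl1 stood at 17.97 and 5.02 CPM, Ifih1 at 7.49 and 3.90 CPM and Isg15 at 3.25 and 1.43 CPM, higher in chemokine-high cells. No heat shock gene of 9 and no mitochondrially encoded gene of 13 passed the limit, with medians of -0.26 and 0.05.

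The lists that remain held few genes past the limit, beside 4.81% of all genes higher and 7.29% lower. In lists this small, 1 or 2 genes are no result about the list. Of 12 genes of GM-CSF and cytokine signalling 1 was higher, Bcl2l1, which encodes the survival factor BCL-XL, at 76.4 and 43.0 CPM. Of 6 genes of antigen presentation 1 was higher, the co-stimulator Cd86, at 41.9 and 23.0 CPM. Of 13 glycolysis and hypoxia genes 2 were higher, the glucose transporter Slc2a1 at 90.02 and 58.3 CPM and Hilpda at 20.6 and 11.7 CPM. Of 10 ATF4 targets 1 was higher, Ddit3, the stress factor CHOP, at 83.3 and 30.4 CPM, and 2 were lower, Psat1 at 133 and 234 CPM and Ddit4 at 5.96 and 9.46 CPM.

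**Figure D3:**
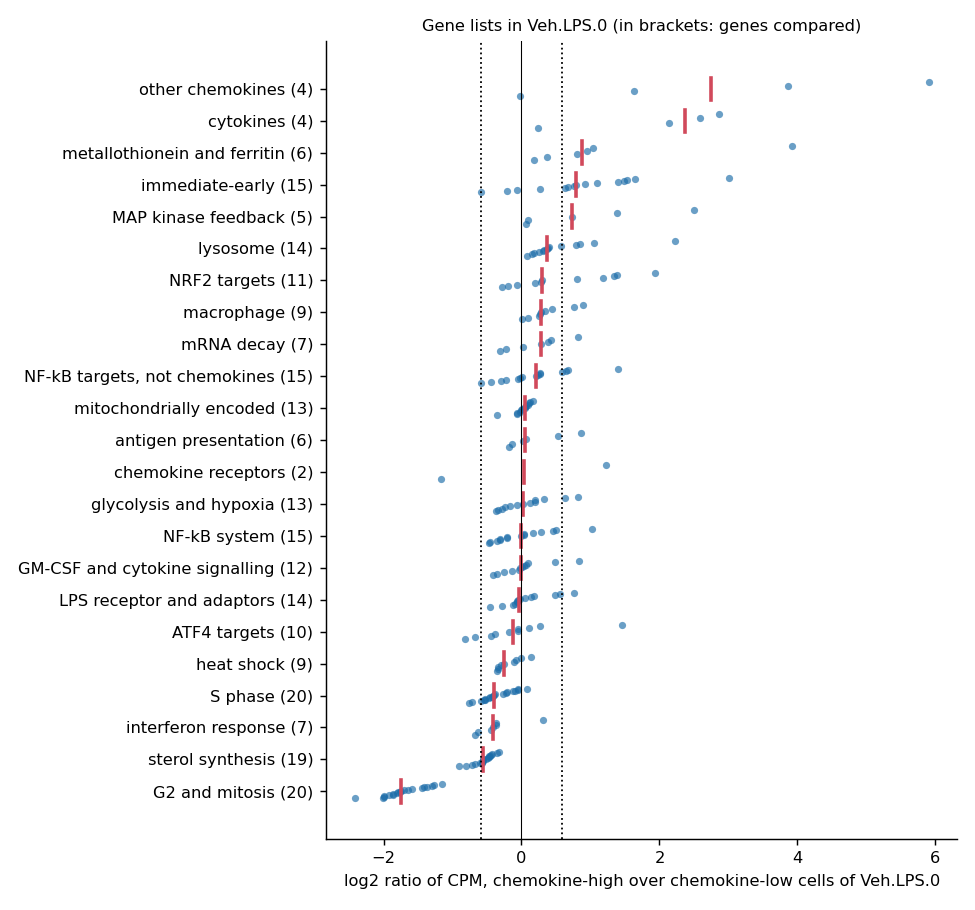
log2 ratio of CPM, chemokine-high over chemokine-low cells of Veh.LPS.0, for each gene compared (points) in 23 gene lists, with the list's median (red bar) and the 1.5-fold limits (dotted). The medians run from 2.74 for other chemokines and 2.37 for cytokines to -1.75 for G2 and mitosis, and the NF-κB system and the LPS receptor lie at -0.01 and -0.03.

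Both sets looked like macrophages. Spi1, which encodes the macrophage regulator PU.1, stood at 200.4 and 199 CPM and Csf1r at 95.4 and 89.0 CPM. All 9 macrophage markers had a log2 ratio above 0, beside 33.7% of all genes compared. Of the 9, Lyz2, lysozyme, at 3418 and 1840 CPM, and Cd14 passed the limit. Markers of other cells were at or near 0 in both sets. Summed over a list, they had 0.54 and 0.56 CPM for neutrophils, 0 and 0 CPM for mast cells and basophils, 0.45 and 0.56 CPM for erythroid cells, 0.18 and 0.23 CPM for stromal and endothelial cells, 0.09 and 0.10 CPM for lymphoid cells and 1.17 and 1.39 CPM for dendritic cells. The monocyte list had 9.21 and 6.56 CPM, mostly from Ccr2, with Ly6c2 at 0, and the hepatocyte list 6.32 and 4.42 CPM, from Afp, with Alb at 0. Of 10 genes of alveolar-like macrophages, 1 was compared, Fabp5, at 273 and 214 CPM.

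Cell cycle state moved with the score. The summed G2 and mitosis list had a median of 512 CPM in chemokine-high cells and 3821 in chemokine-low cells. When the library was divided at the median share of S, G2 and mitosis genes, 189 of 248 chemokine-high cells (76.2%, 70.4 to 81.4) and 442 of 1240 chemokine-low cells (35.6%, 33.0 to 38.4) lay in the lower part. The sets were formed again within the 1241 cells of that lower part, as 124 high and 620 low cells. There, 417 genes were higher and 655 lower, and among these were 322 of the 399 genes higher in the full library and 263 of the 605 lower ones.

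Ratios within those cells are given without weighing higher against lower genes. The cut was made on the S, G2 and mitosis genes, among them Cenpf. Smaller ratios of these genes, and of genes that go with them, could follow from the cut itself. The log2 ratio was 5.71 for Ccl7 (5.90 in all cells), 3.57 for Ccl2 (3.86), 2.83 for Il1rn (2.87) and 2.86 for Atf3 (3.01). It was -0.11 for Kif14 (-2.18), -0.14 for Mxd3 (-2.06), -0.21 for Hyls1 (-2.18), -0.71 for Prc1 (-2.02) and -1.26 for Cenpf (-2.42). Of the G2 and mitosis list, 18 genes were compared there and 11 were lower, with a median of -1.02. The part of the cell cycle in the remaining differences was not tested.

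The Cxcl2-rich cells weighed on a few ratios, as an alternative added after the data were seen showed. Without the 54 cells with at least 20 Cxcl2 UMIs, 291 genes were higher and 498 lower. The log2 ratio was then 1.84 for Atf3 (3.01 with them), 3.88 for Plk2 (4.80) and 2.60 for Procr (3.42), and 5.58 for Ccl7 and 3.74 for Ccl2.

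**Figure D4:**
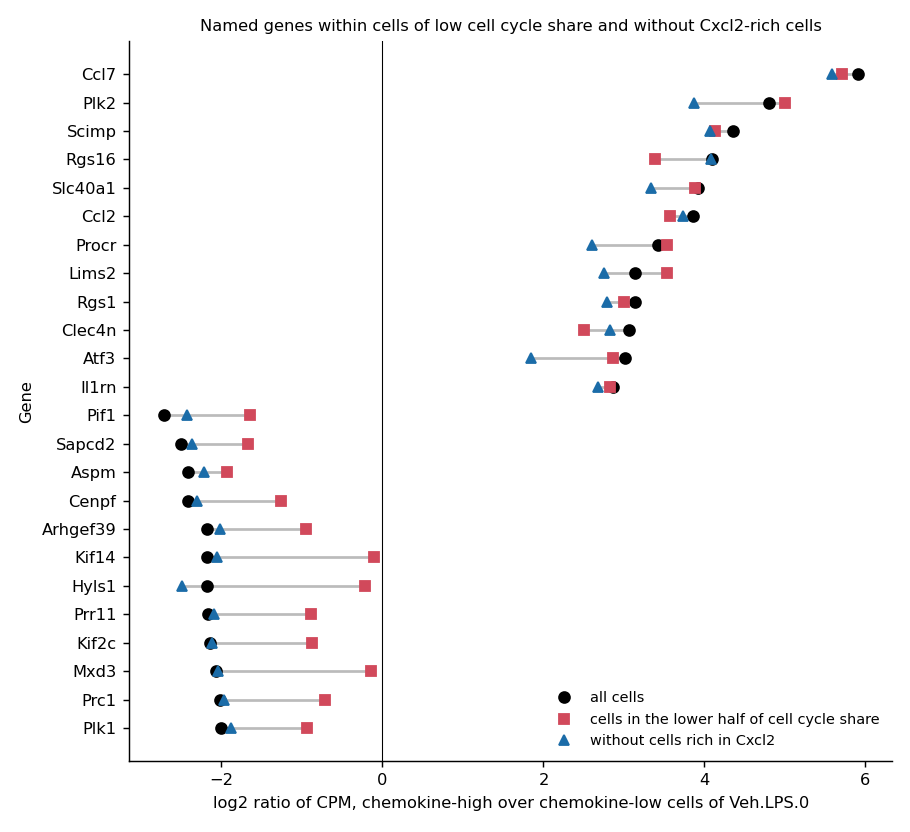
log2 ratio of CPM, chemokine-high over chemokine-low cells of Veh.LPS.0, for the 12 genes with the highest and the 12 with the lowest ratio, in all cells (circles), with both sets formed within the lower part of the cell cycle share (squares) and without the Cxcl2-rich cells (triangles). Kif14, Mxd3 and Hyls1 come to between -0.11 and -0.21 within the lower part, which was cut by cell cycle genes. Ccl7 lies between 5.58 and 5.90.

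Whether the same genes go with the score was then asked in the other 6 libraries, which the choice of cells did not use. In each, the top 10% and the bottom 50% by the same score were formed within the library, from 69 to 307 high cells. Across genes compared in both libraries, the log2 ratios had a Pearson correlation with those of Veh.LPS.0 of 0.87 in DHA.LPS.0 (8247 genes), 0.82 in Con (7990), 0.82 in Veh.LPS.1 (7408) and 0.65 in DHA.LPS.1 (7853). At 4 h it was -0.05 in Veh.LPS.4 (7598) and -0.04 in DHA.LPS.4 (6807). Genes are not independent replicates, and no p is given. Of the 399 genes higher in Veh.LPS.0, 337 (84.5%) had a log2 ratio above 0 in each of the 4 libraries not at 4 h. Of all genes, 12.8% did. Of 599 lower genes with values, 548 (91.5%) were below 0 in each of the 4, against 42.7% of all genes. With the 4 h libraries included, 118 of the 399 (29.6%) were above 0 in each of the 6, against 3.71% of all genes. Of the 599 lower genes, 181 (30.2%) were below 0 in each of the 6, against 20.7% of all genes.

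For some single genes the 4 h libraries stood apart in the same way. The log2 ratio of Ccl7 was 5.55 in Con, 6.16 in DHA.LPS.0, 2.28 in Veh.LPS.1, 2.73 in DHA.LPS.1, 0.29 in Veh.LPS.4 and 0.16 in DHA.LPS.4. That of Clec4n was 2.24, 2.70, 1.65 and 1.45 in the first 4 of these and -1.36 and -1.89 at 4 h. Ccl2 had 3.42, 4.50, 1.61, 1.85, 1.20 and 1.28 in this order of libraries, so it was above 0 in all 6. Cenpf had -1.59, -2.81, -1.65, -1.34, 0.12 and -1.20. At 4 h the median score was 32309 CPM in Veh.LPS.4 and 27590 in DHA.LPS.4, above the Veh.LPS.0 limit of 6643, so that low cells there carried more score UMIs than most chemokine-high cells of Veh.LPS.0.

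**Figure D5:**
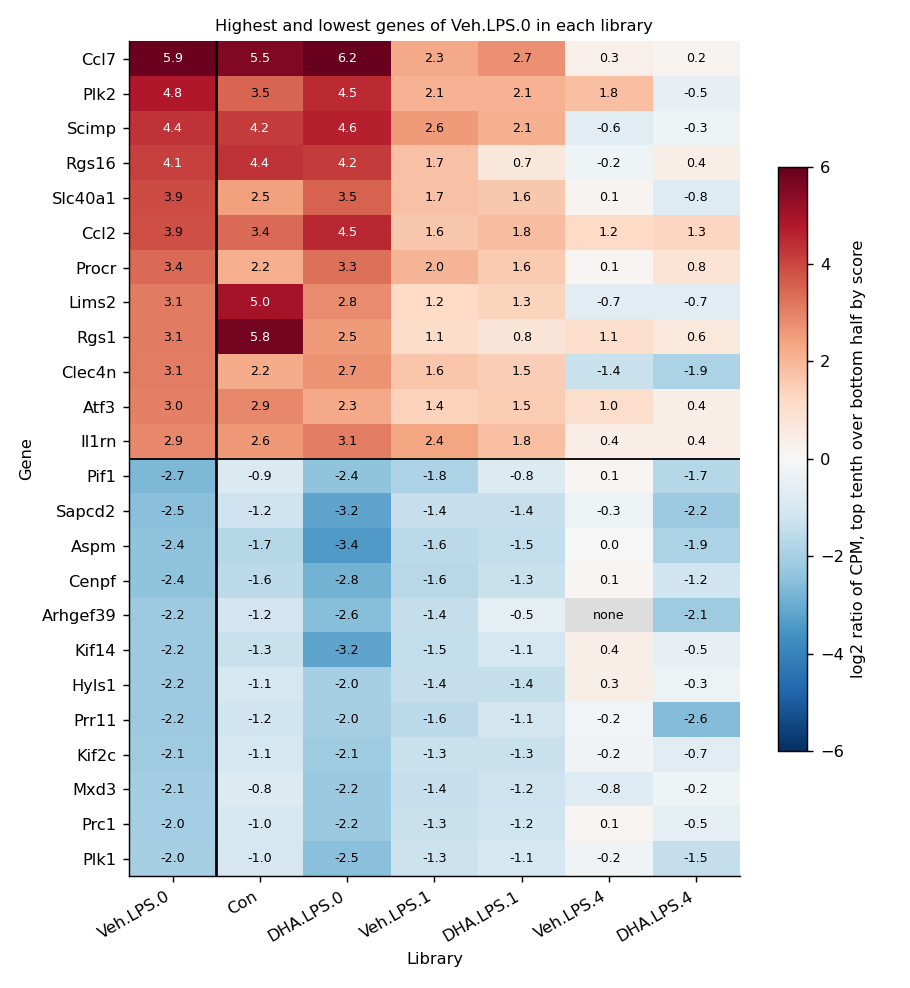
log2 ratio of CPM between the top 10% and the bottom 50% of cells by score within each of the 7 libraries, for the 12 highest and the 12 lowest genes of Veh.LPS.0 (first column, used to choose them); none marks a ratio that could not be formed. Ratios in Con, DHA.LPS.0 and the 1 h libraries have the direction of Veh.LPS.0, and at 4 h Clec4n has -1.36 and -1.89.

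Tested over these 6 libraries, some of the differences held. UMIs were summed over the high and the low cells of each library and compared with edgeR's quasi-likelihood test, with the library as a block and Benjamini-Hochberg adjustment over 10458 genes at a threshold of 0.05. Here 310 genes (2.96%) were higher and 85 (0.813%) lower in high cells. Of the 399 higher genes of Veh.LPS.0, 119 (29.8%) were called higher and 0 lower. Of its 605 lower genes, 56 (9.26%) were called lower and 0 higher. The libraries are 6 conditions, so the spread between them includes condition, and the calls leaned on single libraries. There were 115 higher and 13 lower genes without Con, 121 and 15 without DHA.LPS.0, 42 and 1 without Veh.LPS.1, 39 and 2 without DHA.LPS.1, 425 and 176 without Veh.LPS.4, and 200 and 39 without DHA.LPS.4. With the block left out edgeR called 0 genes, with 183 at an unadjusted p under 0.05, while DESeq2 with the block called 594 higher and 261 lower.

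Of the 12 highest genes of Veh.LPS.0, 5 were called higher by edgeR over the 6 libraries, which were Ccl2, Plk2, Il1rn, Procr and Atf3. The log2 fold change was 2.37 for Ccl2 (adjusted p = 0.030), 2.34 for Plk2 (0.041), 1.89 for Il1rn (0.035), 1.73 for Procr (0.038) and 1.67 for Atf3 (0.021). Ccl7 had a larger fold change of 2.82 with an adjusted p of 0.12 by edgeR and was not called, nor were Scimp (1.92), Rgs1 (1.87), Rgs16 (1.77), Slc40a1 (1.76), Lims2 (1.46) and Clec4n (1.16). Spp1 rose by 1.58 on the log2 scale in edgeR (adjusted p = 0.038). Of the 12 lowest genes, 8 were called lower, Aspm by -1.59, Sapcd2 by -1.42, Arhgef39 by -1.32, Cenpf by -1.31, Prr11 by -1.24, Plk1 by -1.15, Mxd3 by -1.14 and Kif2c by -1.10, and Kif14, Hyls1, Pif1 and Prc1 were not.

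By list, and beside 2.96% of all genes called higher and 0.813% lower, 10 of 12 genes tested in the cytokine list, which also holds the cyclooxygenase gene Ptgs2, were called higher, as were Phlda1 and 4 more of 10 genes of MAP kinase feedback, 8 of 16 NF-κB targets, 7 of 20 immediate-early genes, 4 of 17 of the NF-κB system, 4 of 6 genes of antigen presentation, 3 of 10 chemokines, 2 of 11 NRF2 targets and 0 of 15 lysosome genes, and none of these was called lower. Of 19 interferon response genes 4 were called higher and 0 lower, with a median log2 fold change of 0.81. They were Oasl1 (2.29), Isg15 (1.64), Oasl2 (1.57) and Ifih1 (1.53), while Irf9 had 0.06 and Xaf1 0.30. Of 20 G2 and mitosis genes 2 were called lower and 0 higher. Of 20 sterol synthesis genes and of 20 S phase genes, 0 were called in either direction. Of 6 genes that bind or move metals, 1 was called higher and 0 lower. These lists were drawn up with earlier results of these data known.

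Because the 4 h libraries differed by eye, the same fit was repeated without them, a choice made after seeing the ratios. It called 1108 genes higher (10.3%) and 730 lower (6.77%) of 10777, among them, in the same directions, 345 of the 399 and 406 of the 605 genes counted in Veh.LPS.0. All 20 G2 and mitosis genes, 7 of 20 sterol synthesis genes and 2 of 20 S phase genes were called lower, and 14 of 15 lysosome genes, 9 of 19 interferon response genes, 8 of 10 chemokine genes, 6 of 11 NRF2 targets and 5 of the 6 genes that bind or move metals higher. Among the 12 highest genes all were called, from Ccl7 at 4.13 (adjusted p = 0.0048) to Procr at 2.33, Lims2 at 2.18, Clec4n at 2.11 and Atf3 at 2.08 by edgeR.

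The difference itself was tested as an interaction. Between the 4 libraries with LPS and the 2 without, edgeR called 3 of 10458 genes (0.0287%), with 887 at an unadjusted p under 0.05. Between the 2 libraries at 4 h and the other 4, the term called 1535 genes (14.7%), 638 with a larger and 897 with a smaller log2 difference at 4 h. This term was also chosen after the ratios had been seen and is not independent of them. It included 13 of 15 lysosome genes, 12 of 20 G2 and mitosis genes and 9 of 20 S phase genes, and 0 of 16 genes of the LPS receptor and its adaptors.

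Cells with a summed score above the lower limit of the chemokine-high cells were rare in Con and made up most cells of the LPS libraries. The limit is on the sum, and single genes differed. Of all UMIs, Cxcl2 and Tnf stood at 755 and 308 CPM in chemokine-high cells, against 7543 and 3798.5 CPM over all Veh.LPS.1 cells. Ccl3 and Ccl4 stood at 4499 and 5798 CPM, against 3414 and 5033 CPM. Above the limit of 6643 CPM lay 21 of 2908 Con cells (0.722%, 0.448 to 1.10) and 96 of 698 DHA.LPS.0 cells (13.8%, 11.3 to 16.5). The rule itself fixed the share at 10.0% in Veh.LPS.0, so no interval is given for it. The shares were 95.9% in Veh.LPS.1, 90.6% in DHA.LPS.1, 96.8% in Veh.LPS.4 and 94.1% in DHA.LPS.4. Summed over all cells, Cxcl2 stood at 4.96 CPM in Con, 112 in Veh.LPS.0, 235 in DHA.LPS.0, 7543 in Veh.LPS.1, 7011 in DHA.LPS.1, 13362 in Veh.LPS.4 and 11764 in DHA.LPS.4. Ccl4 stood at 230, 1524, 1777, 5033, 3772, 11013 and 8159 CPM in the same order. Each condition is 1 library, so these differences have no replicate check. The cell filter kept 698 of 3773 barcodes in DHA.LPS.0 and 2481 of 4461 in Veh.LPS.0.

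Genes that respond to LPS were counted against the same contrast, with the response taken from the DHA libraries so that no Veh.LPS.0 cell entered it. From DHA.LPS.0 to DHA.LPS.1, 193 of 8470 genes (2.28%) were more than 2-fold higher. Of these, 155 could be compared in Veh.LPS.0, and 55 (35.5%) were higher and 2 lower in chemokine-high cells, against 4.81% and 7.29% of all genes. The 110 genes lower after 1 h (1.3%) gave 4 higher and 21 lower of 87. From DHA.LPS.0 to DHA.LPS.4, 395 genes (4.66%) were higher and gave 93 higher and 5 lower of 336. The 1453 genes lower at 4 h (17.2%) gave 33 higher and 244 lower of 1366. Both responses share the DHA.LPS.0 library.

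The likeness was not complete. Of the 399 genes higher in chemokine-high cells, 13.8% were in the 1 h list and 23.3% in the 4 h list of LPS-raised genes. Among the 12 highest genes, the log2 ratio of DHA.LPS.1 to DHA.LPS.0 was 1.69 for Plk2, 1.26 for Ccl7, 1.21 for Atf3, 1.20 for Ccl2 and 1.19 for Il1rn, but 0.23 for Clec4n, -0.15 for Rgs1 and -0.49 for Slc40a1. At 4 h it was 3.72 for Ccl7, 3.75 for Il1rn and 3.39 for Ccl2. It was 2.87 for Scimp, 2.73 for Rgs16, 2.24 for Procr and 2.07 for Atf3. Lower values were 0.94 for Rgs1, 0.88 for Plk2, 0.19 for Clec4n and -1.51 for Slc40a1, and Lims2 had no value. The vehicle libraries were left out of this response. Over all their cells, Rgs1 stood at 94.2 CPM without LPS, 243 at 1 h and 479 at 4 h. In the same order Slc40a1 stood at 12.1, 12.1 and 12.3 CPM and Clec4n at 27.3, 25.6 and 23.3 CPM. The paper lists Rgs1 among the genes that LPS raised and DHA lowered at 1 h.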

How the data were processed

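The authors deposited, per the labels and file headers, unnormalized counts of UMIs per gene and barcode from Cell Ranger 3.1.0 on mm10; the paper's methods name another version. Only cells called by Cell Ranger were given, and no doublet caller was run here. For this report the filter of the study's methods was applied in Python 3.11.15, UMIs were summed over sets of cells, and CPM was taken over the total without the 4 score genes. The library totals of the filtered cells were 22045775 to 125716982 UMIs, 98763388 in Veh.LPS.0. Exact binomial 95% intervals cover counting error only. Within Veh.LPS.0 no test was made. Over the 6 other libraries edgeR 4.0.16 (R 4.3.3) was run on sums of 2 sets per library with filterByExpr, TMM factors and the library as a block; DESeq2 1.42.0 was an alternative. The set contrast and the edgeR fit were tested on simulated data. Thinned cells were drawn to 20000 UMIs.

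The members, the 33 gene lists and the tests were chosen with earlier results of these data known. Named genes were the score genes, the 12 highest and 12 lowest ratios among genes past 1.5-fold, and in each list those with the most UMIs among members past the limit or else in the list. Names given outside this rule were chosen after their values were seen. Alternatives were other scores, set sizes, cell filters, scalings and gene filters, and leaving out each library.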

Additional observations from a re-analysis of the deposited data

Results flagged for a closer look

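The difference between high and low cells was itself compared between conditions, by an interaction term over the 6 libraries other than Veh.LPS.0, and the genes called are given here. With 4 libraries with LPS against 2 without, edgeR called 3 genes. With LPS the difference was lower, by -7.12 on the log2 scale for Bglap2, an osteocalcin gene that shares reads with a near-identical copy (adjusted p = 0.00044), by -3.99 for Egr2 and by -2.87 for Egr3, immediate-early transcription factors (adjusted p = 0.028 each). Bglap2 stood at 34.1 CPM in high and 4.13 CPM in low cells of DHA.LPS.0, and at 0.347 and 3.70 CPM in Veh.LPS.1. The high cells of Veh.LPS.1 held 8959945 UMIs of all genes, so its turned direction there rests on very few Bglap2 UMIs. Egr3 stood at 19.2 CPM in high and 1.62 CPM in low cells of Con, and at 86.9 and 63.3 CPM in Veh.LPS.1.

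With the libraries at 4 h against the others, a term chosen after the ratios were seen, the high-low difference of 9 of the 12 highest genes was smaller at 4 h, by -3.80 for Ccl7, -3.70 for Scimp, -3.56 for Clec4n, -2.90 for Rgs16, -2.73 for Lims2, -2.50 for Slc40a1, -2.08 for Il1rn, -1.75 for Procr and -1.24 for Atf3. For 3 of the 12 lowest genes it was less negative, by 1.47 for Hyls1, 1.36 for Cenpf and 1.19 for Prc1. In the median level of the G2 and mitosis list, high cells had less than low cells in Veh.LPS.0, 512 CPM against 3821, and more at 4 h, 594 against 127 in Veh.LPS.4 and 726 against 209 in DHA.LPS.4. The 90th percentile was lower in high cells at 4 h as well, 1752 against 2345 in Veh.LPS.4 and 2560 against 3682 in DHA.LPS.4, and the level over summed UMIs was 883 against 752 and 1052 against 1252. The part of this in the differences was not tested.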

How the results depend on the processing

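Within Veh.LPS.0 the counts of 399 higher and 605 lower genes stayed within 1.5 times under other scores, scalings, depths and cell filters, with these exceptions. The top 5% of cells against the bottom 50% gave 936 lower genes, a UMI in at least 50% of cells 381 lower genes, and no limit on the share of cells 1027 higher and 1501 lower. None of the 288 alternative log2 ratios of the named genes changed sign, and 80 moved by more than their counting interval. These genes had the most extreme ratios of this library, and the alternatives reuse its cells, so an unchanged sign is a weak check. With cells of more than 10000 UMIs, 94.2% of Veh.LPS.1 cells lay above the limit of the chemokine-high cells. No doublet caller was run, and 344 genes were higher and 528 lower without cells above the 95th percentile of UMIs.

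Over the 6 other libraries, DESeq2 called 594 genes higher and 261 lower, no filter on low counts gave 156 lower, and leaving out 1 library gave 39 to 425 higher and 1 to 176 lower. Each library holds both sets of cells and is therefore the block; without the replicate block 0 genes were called higher and 0 lower. Leaving out both 4 h libraries gave 1108 higher and 730 lower, and the interaction with 4 h called 1535. Those last 2 and the removal of Cxcl2-rich cells were chosen after seeing the data. Genes with a UMI in under 25% of the cells of both sets were not compared, 1 library stands for each condition, and cells of a library share its culture.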

Other observations

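At 4 h after LPS the genes with the highest ratios between high and low cells were led by cytokines. In Veh.LPS.4, Csf2, which encodes GM-CSF, stood at 446 CPM in the top 10% and 13.3 CPM in the bottom 50% of cells, Lif, a cytokine of the interleukin-6 family, at 347 and 31.3 CPM, Il6 at 119 and 13.3 CPM, Il1a at 420 and 52.6 CPM, Il1b at 1331 and 272 CPM, and Csf3 at 3478 and 637 CPM. In DHA.LPS.4, Csf2 stood at 221 and 6.97 CPM, Lif at 239 and 22.4 CPM, Il6 at 51.1 and 8.36 CPM, Il1a at 316 and 49.4 CPM, Il1b at 1169 and 182 CPM and Csf3 at 5591 and 885 CPM. Il1a and Il1b held no UMI in the chemokine-high or chemokine-low cells of Veh.LPS.0.

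Ptgs2 and Csf3 held a UMI in too few cells of Veh.LPS.0 to be compared there, and had more RNA in chemokine-high cells. Ptgs2 stood at 29.1 and 0.145 CPM and Csf3 at 16.8 and 0.249 CPM. Over the 6 other libraries both were called higher by edgeR, Ptgs2 with a log2 fold change of 2.89 (adjusted p = 0.0099) and Csf3 with 2.68 (adjusted p = 0.021).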
